A study of Homo sapiens with 6 samples.

Results

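The 10 genes described here make, break down and control the polyamines. They were SAT1, SAT2 and SMOX for breakdown, ODC1, AMD1, SRM and SMS for synthesis, and OAZ1, OAZ2 and AZIN1 as regulators of ornithine decarboxylase. A probe was taken for a gene where the platform annotation gave it that symbol alone, which found 15 of 31741 probes for 10 of 18336 genes. SAT1 was picked because of its large difference between the groups on these same arrays. The values of these genes are therefore given as a description, with no p-value printed. Their intervals and calls below come from the same contrast and are not an independent test of it. The other members were taken for their place in the pathway, by someone who knew the results.

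RNA came from TFK-1, a human cell line established from an extrahepatic cholangiocarcinoma, a cancer of the bile duct outside the liver. All of the cells received a lentivirus, and puromycin was used to keep those that carried it. In the methods, the HOXA5 lentivirus carried a Flag-tagged HOXA5, a homeobox transcription factor, and its negative control virus stood against it. Genotypes in the labels were HOXA5 overexpression in 3 samples and Normal control in 3, each on 1 one-colour Human OneArray. The 2 groups were thus selected derivatives of a single line that differed in the virus they received, and no label says how many transductions they stand for. Nothing states that samples of a group were separate cultures, so the errors below may cover technical spread alone. In bulk RNA, fewer cells of a kind and less RNA per cell cannot be told apart.

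Polyamines are small, positively charged molecules that bind nucleic acids and are needed for cell growth and translation. Ornithine decarboxylase makes putrescine, and aminopropyl groups derived from S-adenosylmethionine are then added to give spermidine and spermine. Spermidine/spermine N1-acetyltransferase acetylates the higher polyamines so that they can be exported or oxidised, and it is known as the rate-limiting step of their breakdown. Antizymes bind ornithine decarboxylase and send it to the proteasome, and the antizyme inhibitor binds antizyme in its place. Proliferating tumours, those of the biliary tree among them, generally have a high demand for polyamines.

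Promoter sequence is shown for the breakdown gene with the large difference and for a pair of synthesis genes, since arrays measured transcripts and these bases precede the annotated starts. RefSeq windows on GRCh38.p14, matched by symbol, were used for 8 of the 10 members. No window was used for AZIN1 or SMOX, so the motif counts below do not cover them. The 250 bases upstream of the first annotated start are printed 5′ to 3′. Capitals mark 3 short motifs searched on both strands: CACGTG, the palindromic E-box bound by MYC, MAX and MXD1, CCAAT, bound by NF-Y, which is ATTGG when read from the opposite strand, and TGACG, the core of the site bound by CREB, which is CGTCA when so read. These motifs do not contain one another.
SAT1, chrX:23782923-23783172 (plus strand): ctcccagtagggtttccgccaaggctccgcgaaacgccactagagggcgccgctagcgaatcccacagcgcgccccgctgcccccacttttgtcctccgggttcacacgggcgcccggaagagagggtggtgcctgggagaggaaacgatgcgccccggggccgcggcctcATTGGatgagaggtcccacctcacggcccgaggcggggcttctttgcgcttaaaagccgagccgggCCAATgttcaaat
ODC1, chr2:10448328-10448577 (minus strand): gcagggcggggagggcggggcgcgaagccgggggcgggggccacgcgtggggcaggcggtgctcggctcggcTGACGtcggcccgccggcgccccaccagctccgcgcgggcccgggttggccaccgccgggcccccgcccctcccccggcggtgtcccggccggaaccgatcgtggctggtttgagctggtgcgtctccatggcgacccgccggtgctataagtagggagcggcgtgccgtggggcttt
SRM, chr1:11060019-11060268 (minus strand): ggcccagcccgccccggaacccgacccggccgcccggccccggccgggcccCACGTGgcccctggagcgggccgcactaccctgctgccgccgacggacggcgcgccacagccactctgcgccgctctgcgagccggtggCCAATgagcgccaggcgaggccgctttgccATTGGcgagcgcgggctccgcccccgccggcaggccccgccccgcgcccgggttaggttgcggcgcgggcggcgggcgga
The SAT1 window held 2 CCAAT matches and 0 E-boxes. ODC1 held 1 TGACG match, while SRM held 1 E-box and 2 CCAAT matches. Before another annotated ODC1 start, not printed here, the window held 1 E-box and 1 TGACG match. Over the first-start windows of the 8 members with a window used, 1 held CACGTG, 6 held CCAAT and 2 held TGACG. These counts depend on the start chosen: the AMD1 window counted held CCAAT, and those of its other starts held TGACG instead. Among 35116 RefSeq promoter windows of the same length, 6.34% held CACGTG, 32.0% held CCAAT and 21.2% held TGACG. That background took every listed start of a gene, not first starts alone, so the sets are unlike. A match here is a run of letters, not a bound site.

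Across the 6 arrays, the median raw intensity was 95 to 180 and lowest for HOXA5 replicate 3. Between 17150 and 21154 probes per array carried flag 0, a deposited mark that was read from the values as not dim. The HOXA5 probe with the higher mean read 110, 118 and 49 on control replicates 1, 2 and 3 and 585, 502 and 312 on HOXA5 replicates 1, 2 and 3, and it rose by 1.94 ± 0.12 on the log2 scale (limma, adjusted p = 0.000766). A second HOXA5 probe fell by 0.34 ± 0.07 (limma, adjusted p = 0.0253). Where on the transcript the probes lie was not examined. Of 6 biliary epithelial markers, 5 had a probe and 4 were above the dim limit on all arrays, with KRT7 above it on 5. KRT7 and KRT8 were weak, with raw intensities of 55 to 185 and 103 to 281 over the 6 arrays. The summed raw intensity of the 5 markers was 49172 to 65419 in controls and 53380 to 80953 in HOXA5 samples, most of it KRT19. KRT19 and CDH1 rose by 0.44 and 1.40 (limma, adjusted p = 0.0104 and 0.000615). Of 11 markers of other cell types, PTPRC, CD3E, COL1A2, DCN and ALB were dim on all arrays, and PECAM1 was above the limit on 3. The other 5 were above it on all arrays, at raw intensities of 684 to 1491 for COL1A1 and 214 to 747 for APOA1. INS read 244 to 628, CD68 read 176 to 567 and VWF read 116 to 370. Among these 5, APOA1 rose by 0.89 (limma, adjusted p = 0.0279). The sums of the 11 were 1686 to 2757 in controls and 1647 to 3929 in HOXA5 samples. The part of either marker list in the results below was not tested.

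SAT1, the acetyltransferase of polyamine breakdown, was far brighter in HOXA5 samples by both of its probes. Values are raw intensities for replicates 1, 2 and 3 in that order, and changes are HOXA5 overexpression minus control in quantile-normalized log2(intensity + 50), ± SE from limma, with n = 3 per group. Probe PH_hs_0002492, which stayed below saturation, read 4261, 3732 and 3070 in controls and 21802, 24207 and 16436 in HOXA5 samples. All 3 HOXA5 arrays lay above all 3 controls by a wide margin. Its normalized log2 intensity was 11.76 ± 0.11 (SD, n = 3) in controls and 14.44 ± 0.09 in HOXA5 samples. The change was 2.68 ± 0.08 (95% interval 2.48 to 2.89), or 6.43-fold.

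The brighter SAT1 probe, PH_hs_0035404, read 9537, 9369 and 6310 in controls and 65513, 65510 and 62317 in HOXA5 samples. HOXA5 replicates 1 and 2 sat at the top of the scanner's range, here a raw intensity of 65000 or more, so the upper group was read there with a ceiling. Its change of 3.08 ± 0.09, or 8.43-fold, was therefore limited by the scanner on 2 of 3 HOXA5 arrays. Over 17 alternatives of scaling, background and left-out arrays, the change stayed between 2.54 and 2.75 for the unsaturated probe and between 2.98 and 3.17 for the saturated one.

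SAT2, a paralog of SAT1 whose enzyme is less active on polyamines, differed far less. Its probe read 1935, 2064 and 1374 in controls and 2735, 2640 and 1523 in HOXA5 samples. Raw values of the groups overlapped through the dim HOXA5 replicate 3, and after normalization the groups did not overlap. The change was 0.48 ± 0.09 (95% interval 0.25 to 0.71), or 1.40-fold. SAT2 no longer passed the adjusted p in 7 of 17 alternatives, among them those without HOXA5 replicate 1 and without control replicate 1 or 3, while its change stayed between 0.39 and 0.56.

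SMOX, the oxidase that turns spermine back into spermidine, read 1334, 1446 and 872 in controls and 1261, 1895 and 899 in HOXA5 samples. In raw intensity, HOXA5 replicate 2 was the only array above the controls. After normalization, HOXA5 replicate 3 (10.355) also lay just above the highest control (10.350), and the groups overlapped through HOXA5 replicate 1. Its change was 0.25 ± 0.20 (95% interval -0.25 to 0.75).

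**Figure D1:**
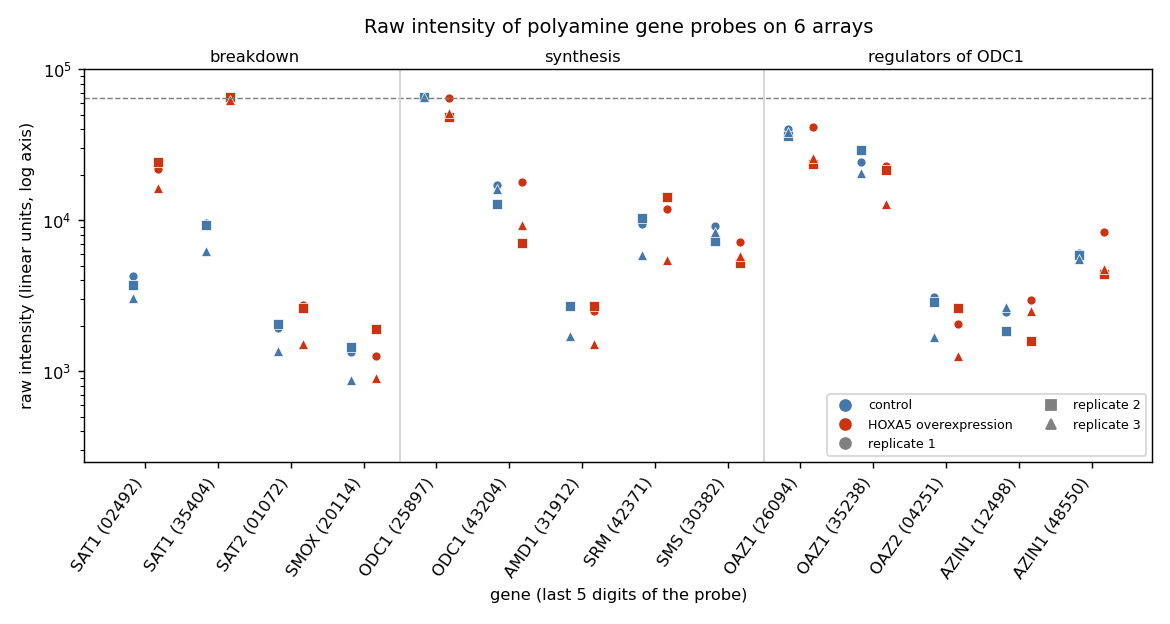
Raw intensity (log axis) of the 14 member probes that were not dim on every array, with control arrays in blue, HOXA5 arrays in red and a marker shape for each replicate number. The dashed line is the saturation limit of 65000. Both SAT1 probes have HOXA5 values above all controls, whereas the groups of most synthesis and regulator probes share a range.

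None of the 4 synthesis genes showed a difference of the size of SAT1, and no other member did either. ODC1, the decarboxylase that starts the pathway, had its brighter probe saturated on all 3 control arrays. That probe read 65513, 65511 and 65516 in controls and 64322, 48175 and 51667 in HOXA5 samples. Measured means on the log2 scale were 15.98 in controls and 15.74 in HOXA5 samples, so controls were 1.18-fold higher as measured. The change was -0.24 ± 0.12 (95% interval -0.53 to 0.04), and it was -0.14 without HOXA5 replicate 2. Because the control values are ceilings, this measured change could understate the difference. Its interval included 0, but the SE and interval were computed from these ceiling values and do not bound the true difference. The groups did not overlap, with HOXA5 replicate 1 just under the ceiling.

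The other ODC1 probe, which was not saturated, read 17128, 12885 and 16213 in controls and 17881, 7028 and 9322 in HOXA5 samples. HOXA5 replicate 1 was the highest of the 6 raw values and HOXA5 replicate 2 the lowest. After normalization, control replicate 3 was the highest and HOXA5 replicate 2 still the lowest. Its change was -0.28 ± 0.37 (95% interval -1.19 to 0.63), and it was 0.08 without HOXA5 replicate 2. A direction for ODC1 by this probe therefore rested on 1 array.

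AMD1, the decarboxylase that supplies the aminopropyl donor, read 2721, 2717 and 1707 in controls and 2491, 2715 and 1523 in HOXA5 samples. Its groups lay on top of each other, with a change of 0.05 ± 0.12 (95% interval -0.26 to 0.36) whose sign turned in 5 of 17 alternatives.

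SRM, spermidine synthase, read 9435, 10347 and 5892 in controls and 11878, 14174 and 5458 in HOXA5 samples. In raw intensity, HOXA5 replicates 1 and 2 were the brightest arrays and HOXA5 replicate 3 the dimmest. After normalization, HOXA5 replicate 3 (12.92) lay inside the control range of 12.65 to 13.06, so the groups overlapped. The change was 0.49 ± 0.25 (95% interval -0.13 to 1.11). The size was near that of SAT2, with an SE of 0.25 against 0.09 for SAT2.

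SMS, spermine synthase, read 9144, 7338 and 8392 in controls and 7225, 5205 and 5761 in HOXA5 samples. Every raw HOXA5 value was below every control, but the normalized groups overlapped through HOXA5 replicates 1 and 3, and the change was -0.23 ± 0.21 (95% interval -0.75 to 0.30). A second SMS probe was dim on all 6 arrays and is given no fold.

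**Figure D2:**
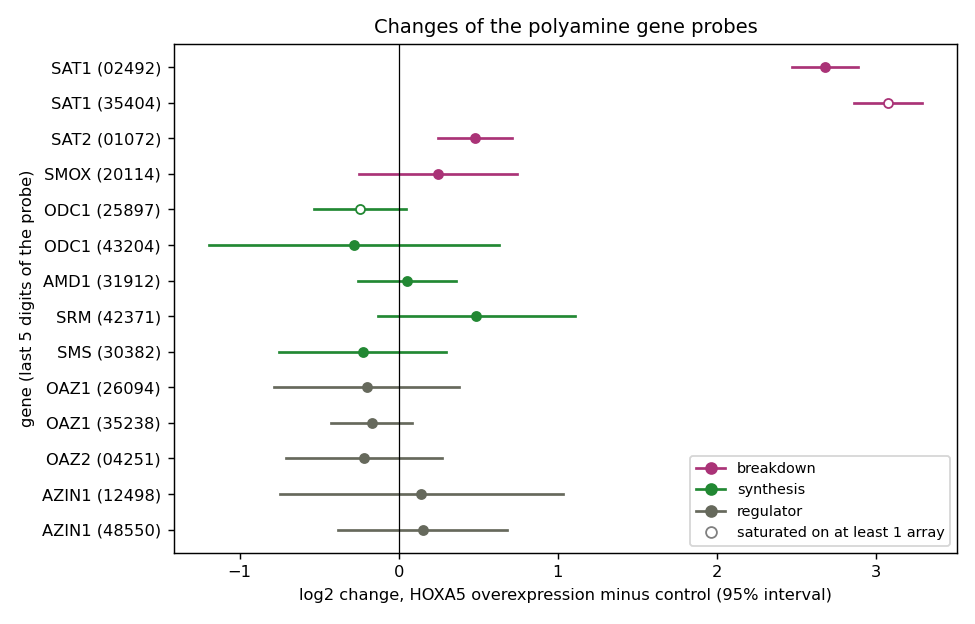
Change of each of the same 14 probes, HOXA5 overexpression minus control on the log2 scale, as a point with its 95% interval and coloured by role; open points were saturated on at least 1 array. The SAT1 points lie at 2.68 and 3.08, and every other point lies between -0.28 and 0.49.

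The regulators of ornithine decarboxylase overlapped between the groups by all 5 of their probes. OAZ1, antizyme 1, read 40123, 36427 and 38348 in controls and 41659, 23664 and 25888 in HOXA5 samples by its brighter probe. In raw intensity, HOXA5 replicate 1 was above every control and the other HOXA5 arrays were below them. After normalization, HOXA5 replicates 1 and 3 lay inside the control range and replicate 2 below it. The changes of the brighter and the other OAZ1 probe were -0.20 ± 0.23 and -0.17 ± 0.10.

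OAZ2, antizyme 2, read 3084, 2880 and 1681 in controls and 2047, 2623 and 1265 in HOXA5 samples. Its change was -0.22 ± 0.20, with the normalized value of HOXA5 replicate 2 inside the control range and the other HOXA5 arrays below it.

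AZIN1, the antizyme inhibitor, read 6112, 5932 and 5553 in controls and 8403, 4439 and 4740 in HOXA5 samples by its brighter probe. The raw HOXA5 values lay on both sides of the controls, with replicate 1 above and the others below. After normalization, HOXA5 replicates 1 and 3 (12.91 and 12.70) lay above every control and replicate 2 (12.13) below them. Its changes were 0.15 ± 0.21 and 0.14 ± 0.36 by the brighter and the other probe.

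Counted by gene, with the brightest probe of each, 2 of 10 members (SAT1 and SAT2) were higher in HOXA5 samples at an adjusted p under 0.05, against 13.1% of all 18336 genes. Lower calls numbered 0 of 10, against 11.0% of all genes. At a log2 change of at least 1 the member counts were 1 higher and 0 lower, where 3.83% and 2.39% of all genes stood. Without overlap between the groups were 2 higher members and 1 lower, the saturated ODC1 probe, against 21.0% and 20.4% of all genes. Nothing is read from these counts, since SAT1 was chosen on this contrast. The median change of the 10 members was 0.10, and that of all genes was -0.01.

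By role, the breakdown probes had changes of 0.25 to 3.08, a range whose upper end is the gene chosen for its difference. Bright probes of the synthesis genes had changes of -0.28 to 0.49 and those of the regulators of -0.22 to 0.15. SAT1 was set against ODC1 on each array as its deviation from its control mean minus that of ODC1, by the unsaturated probes. This compares 1 gene of each role, with SAT1 chosen for its difference, and does not measure a balance of breakdown and synthesis. The value was 0.04, 0.30 and -0.34 on control replicates 1, 2 and 3. On HOXA5 replicates 1, 2 and 3 it was 2.31, 3.74 and 2.83. The spread among HOXA5 arrays came largely from ODC1, whose deviations there were 0.27, -1.00 and -0.11, against 2.58, 2.75 and 2.72 for SAT1.

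Arrays numbered 2 were the lowest or highest of their group for many member probes, though not alone in this. In a group of 3, some array is always the lowest and another the highest. Counts like those below can therefore arise without any array standing out, and no share over all probes was taken. Within the HOXA5 group, replicate 2 was the lowest array for 3 and the highest for 2 of 5 synthesis probes, and the lowest for 3 of 5 regulator probes. Within the control group, replicate 2 was likewise the lowest for 3 of 5 synthesis and 3 of 5 regulator probes. For the 4 breakdown probes, replicate 2 was the highest array for 3 in the HOXA5 group and for 2 in the control group. Control replicate 3 was an extreme as well. It was the lowest control for 3 of 4 breakdown probes and the highest for 3 of 5 synthesis and 3 of 5 regulator probes. On HOXA5 replicate 2, SMOX and SRM deviated from their control means by 0.65 and 0.90, the highest of the 6 arrays for both genes. The unsaturated ODC1 probe and the brighter OAZ1 probe had their lowest values on that array, at -1.00 and -0.66.

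**Figure D3:**
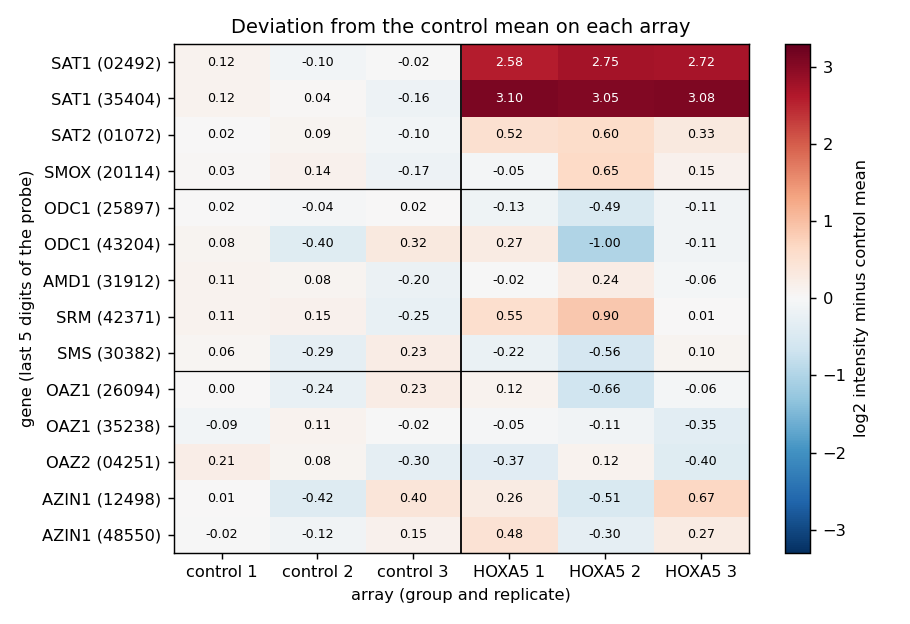
Normalized log2 intensity minus the control mean on each of the 6 arrays for the same 14 probes, in rows by role, with red for higher and blue for lower. SAT1 is at 2.58 to 3.10 on all HOXA5 arrays, while ODC1, SRM and AZIN1 differ in sign or size between HOXA5 replicates.

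The genes whose profile over the 6 arrays was most like that of SAT1 were looked for among 10940 genes above the median probe. Likeness was the root mean square difference of centred log2 values from the brighter SAT1 probe, in which a smaller number is closer. With 2 groups, this distance depends largely on the size of the group change. JUN, a subunit of the AP-1 transcription factor, was closest at 0.12, with a change of 2.97 ± 0.08. JUN read 1098, 1194 and 807 in controls and 8099, 8480 and 5843 in HOXA5 samples. BHLHE40, a basic helix-loop-helix repressor, followed at 0.14 with a change of 3.13. SMIM14 came next at 0.15 with 2.87, then NDRG1 at 0.17 with 2.80 and LURAP1L at 0.18 with 3.35. LURAP1L was weak in controls, at raw intensities of 95, 98 and 64. The reference probe was saturated on 2 HOXA5 arrays, so its profile and this order were set in part by the scanner's ceiling. Against the unsaturated SAT1 probe, a comparison added after seeing the data, the 5 closest were SERPINA3 at 0.09, NDRG1 at 0.12, VWA5A at 0.12, SYNPO at 0.13 and SMIM14 at 0.14. Only NDRG1 and SMIM14, 2 of 5, were shared by both sets.

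Beyond the 10 members, 31 further genes of polyamine metabolism were listed by pathway knowledge, and 28 had a probe. Of these 28, 5 rose, 6 fell and 17 did not pass the adjusted p (limma, Benjamini-Hochberg over 31741 probes), beside the 13.1% higher and 11.0% lower of all genes. Their median change was -0.08, and the list as a whole was not tested. ARG1, SATL1, SLC22A2 and SLC47A1 were dim on all arrays.

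Among 5 measured genes of ornithine supply and removal, 1 rose and 1 fell. ARG2, the mitochondrial arginase that releases ornithine from arginine, read 464, 418 and 407 in controls and 2858, 1791 and 1934 in HOXA5 samples. Every HOXA5 array was over every control, and ARG2 rose by 2.31 ± 0.19 or 4.96-fold (limma, adjusted p = 0.00156). It ranked 40 of 18336 genes and kept its call in all 17 alternatives. ALDH18A1, which makes the precursor of proline and ornithine from glutamate, read 1615, 1723 and 1290 against 1163, 976 and 689. It fell by 0.58 ± 0.06 (limma, adjusted p = 0.00263). OAT, ornithine aminotransferase, and AGMAT did not pass, with changes of -0.09 ± 0.25 and -0.24 ± 0.15.

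Of 8 genes that make S-adenosylmethionine or recycle the methylthioadenosine released by the aminopropyl transfers, 3 rose and 2 fell. MAT2A, the methionine adenosyltransferase of most tissues outside the liver, read 14934, 17126 and 11629 in controls and 25382, 21878 and 15208 in HOXA5 samples. It rose by 0.74 ± 0.09 (limma, adjusted p = 0.00404), whereas its second probe changed by 0.42 ± 0.32 and did not pass (adjusted p = 0.442). MTAP, which cleaves methylthioadenosine, read 2827, 2885 and 2005 against 4738, 3902 and 2933 and rose by 0.74 ± 0.07 (adjusted p = 0.00232). A second MTAP probe went the other way and read 104, 58 and 92 in controls against 39, 21 and 22, dim on 1 control array and on all HOXA5 arrays. With the mean of all probes of a gene, MTAP and MAT2A changed by 0.03 and 0.58 and did not pass (limma, adjusted p = 0.845 and 0.0604). MAT1A, the liver form, rose by 0.43 ± 0.08 (adjusted p = 0.0185) from an intensity that was dim on 1 control array.

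A pair of later salvage enzymes fell, while MRI1 and ENOPH1 did not pass. ADI1, the dioxygenase near the end of the route back to methionine, read 2849, 3222 and 2065 in controls and 1351, 1539 and 856 in HOXA5 samples. It fell by 0.96 ± 0.12 (limma, adjusted p = 0.0045), and its second probe fell by 1.02 ± 0.08 (adjusted p = 0.00141). No control value reached down to the HOXA5 values. APIP, the dehydratase of the same route, fell by 0.44 ± 0.10 (adjusted p = 0.0272).

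Hypusine, a modified lysine that eIF5A receives from spermidine, is made by DHPS and then DOHH. DHPS read 3021, 3698 and 2693 in controls and 4316, 4077 and 2790 in HOXA5 samples and rose by 0.42 ± 0.08 (limma, adjusted p = 0.0165). Its raw values overlapped, and it did not pass under median scaling, 75th percentile scaling or the authors' values (adjusted p = 0.218, 0.159 and 0.304). DOHH read 5218, 5960 and 4482 against 2463, 2936 and 1839 and fell by 0.94 ± 0.11 (adjusted p = 0.00404). EIF5A2, a paralog of EIF5A, fell by 0.46 ± 0.11 (adjusted p = 0.0335). EIF5A itself did not pass, with a change of -0.94 ± 0.78 (adjusted p = 0.482) and raw values from 1291 to 4878 in controls and from 548 to 2105 in HOXA5 samples. Replicate 2 was its lowest array in both groups.

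Of 8 measured transport genes, only SLC18B1, a vesicular polyamine transporter, passed. It read 2086, 1708 and 1157 in controls and 926, 903 and 595 in HOXA5 samples, with no overlap, and fell by 0.86 ± 0.12 (limma, adjusted p = 0.00779). ATP13A3, a polyamine-transporting ATPase, changed by -0.60 ± 0.65 (adjusted p = 0.600), and SLC3A2 by 0.21 ± 0.20 (adjusted p = 0.550). PAOX, the oxidase that acts on the acetylated products of SAT1, changed by 0.17 ± 0.07 (adjusted p = 0.146), and 0 of the 3 measured genes of further breakdown and antizyme passed.

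**Figure D4:**
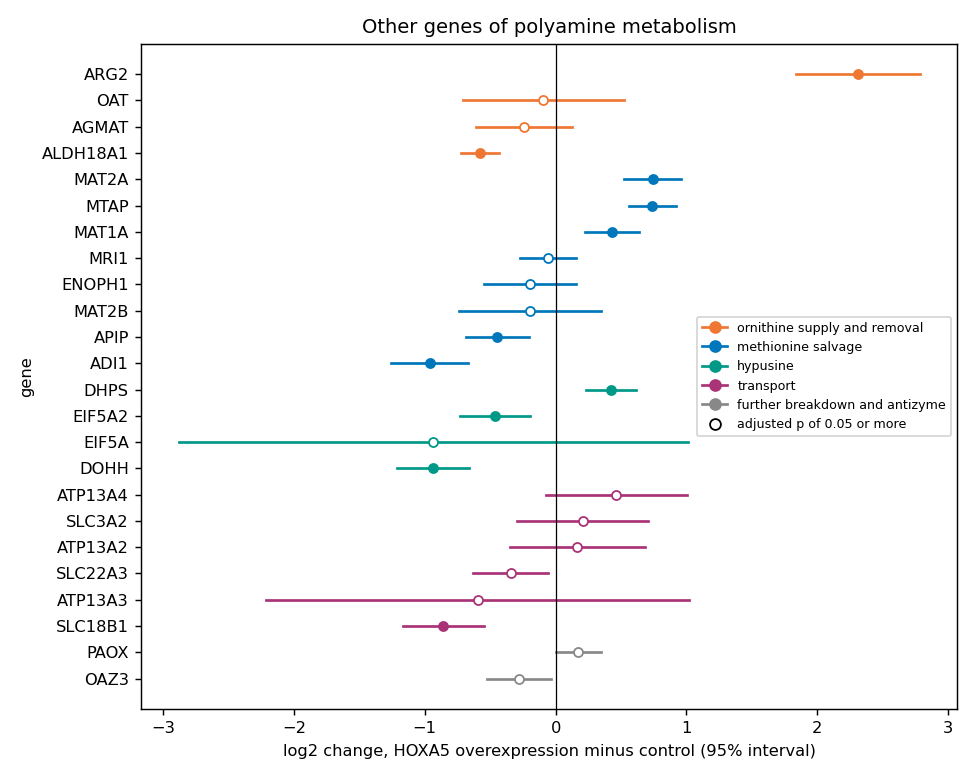
Change of the measured polyamine genes outside the 10 members, leaving out the 4 that were dim on all arrays, with 95% intervals and colours by route; filled points passed an adjusted p of 0.05 in limma. ARG2 stands at 2.31, DOHH and ADI1 lie near -0.94 and -0.96, and the interval of EIF5A spans 0.

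Calls near the threshold depended on single arrays and on the scaling. Median and 75th percentile scaling each called 8 of the 28 genes in place of 11. Beside DHPS, they lost MAT1A (limma, adjusted p = 0.0765 and 0.0765) and EIF5A2 (0.0609 and 0.0568). Without control replicate 3, MAT1A, DHPS, EIF5A2 and APIP no longer passed, at adjusted p of 0.0770, 0.0615, 0.105 and 0.0699 in limma, and the count of called genes among the 28 was 7 in place of 11. MAT1A was also lost without HOXA5 replicate 3 or control replicate 2 (adjusted p = 0.0559 and 0.0701), EIF5A2 without HOXA5 replicate 1 or control replicate 1 or 2 (0.0739, 0.113 and 0.0943), and APIP without HOXA5 replicate 3 or control replicate 1 or 2 (0.0715, 0.103 and 0.0854). ARG2, ADI1 and DOHH passed under each of the 17 alternatives.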

How the data were processed

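Total RNA of 3 control and 3 HOXA5 samples was amplified, labelled with Cy5 and hybridized to 1 Human OneArray each. For every probe, the authors deposited a linear raw intensity on each array beside a flag and a p-value of detection. The p-values deposited by the authors entered no test. The flag is not explained in the sources read. Judged from the values, flag 0 starts at a raw intensity of 58 to 67, and probes with the other flag are called dim. A second deposited table of intensity equals the raw values times 1 constant per array (0.908 to 1.13) and served as an alternative.

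Intensities plus an offset of 50 were put on the log2 scale and quantile normalized between arrays. The fit used limma 3.58.1 in R 4.3.3 (lmFit, eBayes, no covariates) on the whole table of 31741 probes, with the Benjamini-Hochberg adjustment of two-sided p-values taken over that table. Because of the offset, folds understate the change of dim probes. Of the probes, 24740 had 1 symbol, 977 had several and 6024 had none; symbols of 1948 probes were updated. The probe of highest mean stood for its gene. The steps were tested on simulated data.

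Members and lists were chosen with earlier results of these data known. The genes named are the 10 members, HOXA5, the 10 other polyamine genes with the largest called changes, 8 set genes of the same list and the 5 genes most like SAT1. Other genes were named after their values were seen. Promoters came from RefSeq (GRCh38.p14).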

Additional observations from a re-analysis of the deposited data

How the results depend on the processing

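The number of called members was 1 in place of 2 under median scaling, 75th percentile scaling and the authors' values, and 1 to 2 when arrays were left out, and the member that lost its call was SAT2. The authors' values called 3 of the other polyamine genes in place of 11 and 2109 of all genes in place of 4409. Median and 75th percentile scaling called 8 of the other polyamine genes, and the mean of all probes of a gene called 9, with 3 in place of 5 higher. With arrays left out in turn, or with both arrays numbered 2 left out (chosen after seeing the data), these counts ran from 7 to 12 and from 2460 to 5421. With the replicate block, members called were 2, other polyamine genes 11 and all genes 5241; APIP was lost (adjusted p = 0.0521) and EIF5A passed (adjusted p = 0.0199). Deviations of same-numbered arrays correlated at -0.13, 0.69 and 0.75 over 16529 probes, and control replicate 1 correlated best with HOXA5 replicate 2 (0.27), so the numbers were not taken as pairs. SLC18B1, ALDH18A1, MAT2A and MTAP missed the adjusted p with the authors' values (0.0516, 0.0526, 0.0972 and 0.0634), and SLC18B1 also without both arrays numbered 2 (0.0519). The median change of all probes lay between -0.04 and 0.03 under the 4 scalings. No called change of another polyamine gene reversed. With 3 arrays a group, the number of arrays limits the precision, and the 2 saturated probes limit the size of the SAT1 and ODC1 differences. The causes of lost calls were not tested.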
